A study of Rattus norvegicus with 24 samples.

Results

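The paraventricular nucleus (PVN) of the hypothalamus was compared with the neurointermediate lobe of the pituitary (NIL) in the spontaneously hypertensive rat (SHR). The comparison used 9 of the 24 arrays of the series, chosen by their titles: 4 of the 5 PVN arrays and all 5 NIL arrays. PVN array 3 was left out for its high 3'/5' control ratios, given below. Every array held RNA pooled from 5 male SHR rats. The rats were 10 to 13 weeks old, except those of NIL array 2, which were 10 to 12 weeks old. Nothing in the labels says whether the PVN and the NIL of a pool came from the same rats, and no agent, transgene or other strain enters this comparison. Arrays of 2 further SHR brain regions, the rostral ventrolateral medulla (RVLM) and the supraoptic nucleus (SON), serve here only for levels and for checks. Arrays of the WKY strain serve only for the control ratios.

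The PVN holds magnocellular neurons, which make vasopressin and oxytocin and send their axons down to the posterior lobe, where the hormones enter the blood. It also holds parvocellular neurons, which release hormones such as corticotropin-releasing hormone into the portal vessels or project to autonomic centres. The NIL joins the posterior lobe, made of axon endings and glial cells called pituicytes, with the intermediate lobe, made of melanotrophs that express proopiomelanocortin under the brake of dopamine. A comparison of both thus sets tissue that holds cell bodies and dendrites against tissue that holds distal axons, and brain tissue against an endocrine tissue. The axons need not come from the PVN neurons compared. In bulk samples such as these, fewer cells of a type and less RNA per cell cannot be told apart.

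The deposited intensity, a linear signal per probe set, was scaled to the same trimmed mean of about 100 on each array. Array medians lay between 35.9 and 46.5 in the PVN and between 41.0 and 45.1 in the NIL. A value well under these medians is dim, so that the size of a difference that rests on it is loosely determined. The median Spearman correlation with the rest of the group was 0.950 to 0.962 for the PVN arrays used and 0.956 to 0.968 for the NIL arrays, while the 20 pairs of a PVN and a NIL array lay at 0.851 to 0.878. On PVN array 3 the 3'/5' ratio was 7.01 for actin and 3.33 for GAPDH, against 2.18 to 3.86 and 1.07 to 1.43 on the other 23 arrays, while its hexokinase ratio (4.98) lay within their range (1.40 to 23.4). That array also differed in content, with Crh at 38.1 and Pdyn at 1497, against 393 to 514 and 586 to 768 on the 4 PVN arrays used. Its median Spearman correlation was 0.916 with the other PVN arrays and 0.939 with the SON arrays. Each PVN array used correlated less with the SON (0.927 to 0.945) than with its own group. Precision is limited by how few arrays there are, and p-values measure only the spread between these pools.

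The labels were checked against 5 markers, and each of them separated the PVN arrays used from the NIL arrays. Crh, the corticotropin-releasing hormone, had intensities of 400, 393, 514 and 426 on PVN arrays 1, 2, 4 and 5, and of 2.01, 2.09, 0.471, 13.3 and 2.57 on NIL arrays 1 to 5. Gad1, the enzyme that makes GABA, had 1702, 1343, 956 and 924 in the PVN, and 5.94, 9.77, 3.75, 4.75 and 8.66 in the NIL. Trh, the thyrotropin-releasing hormone, had 806, 762, 997 and 1183 in the PVN, and 17.2, 15.8, 20.3, 15.3 and 18.7 in the NIL. The groups did not overlap for any of these 3 hypothalamic genes, and all NIL values were under the array medians. Drd2, the dopamine receptor through which melanotrophs are held in check, had 92.3, 40.3, 29.2 and 31.3 in the PVN, and 1259, 957, 1291, 1227 and 1115 in the NIL. Epcam, an adhesion molecule of epithelial cells, had 11.1, 15.2, 12.6 and 18.2 in the PVN, and 1280, 1067, 1357, 1298 and 1214 in the NIL. Both pituitary markers were thus bright on all 5 NIL arrays. Epcam was dim on all 4 PVN arrays, while Drd2 was above the array median on PVN array 1 and close to it on PVN array 2.

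The structures differed in a large share of the measured genes, in near balance of direction. limma called 6656 of 14217 genes (46.8%) at an adjusted p under 0.05, with 3091 higher (21.7%) and 3565 lower (25.1%) in the PVN, and the median difference over all genes was −0.02 on the log2 scale. Genes called with a difference of at least 1 numbered 2848 (20%). The arrays of both groups did not overlap in 6489 genes (45.6%), and 5964 genes (41.9%) were both called and without overlap. Over probe sets, 12060 of 31042 (38.9%) were called, 5562 higher (17.9%) and 6498 lower (20.9%), and 5688 of the 31042 (18.3%) were called with a difference of at least 1. Counts of gene lists below are read beside 21.7% and 25.1%.

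**Figure D1:**
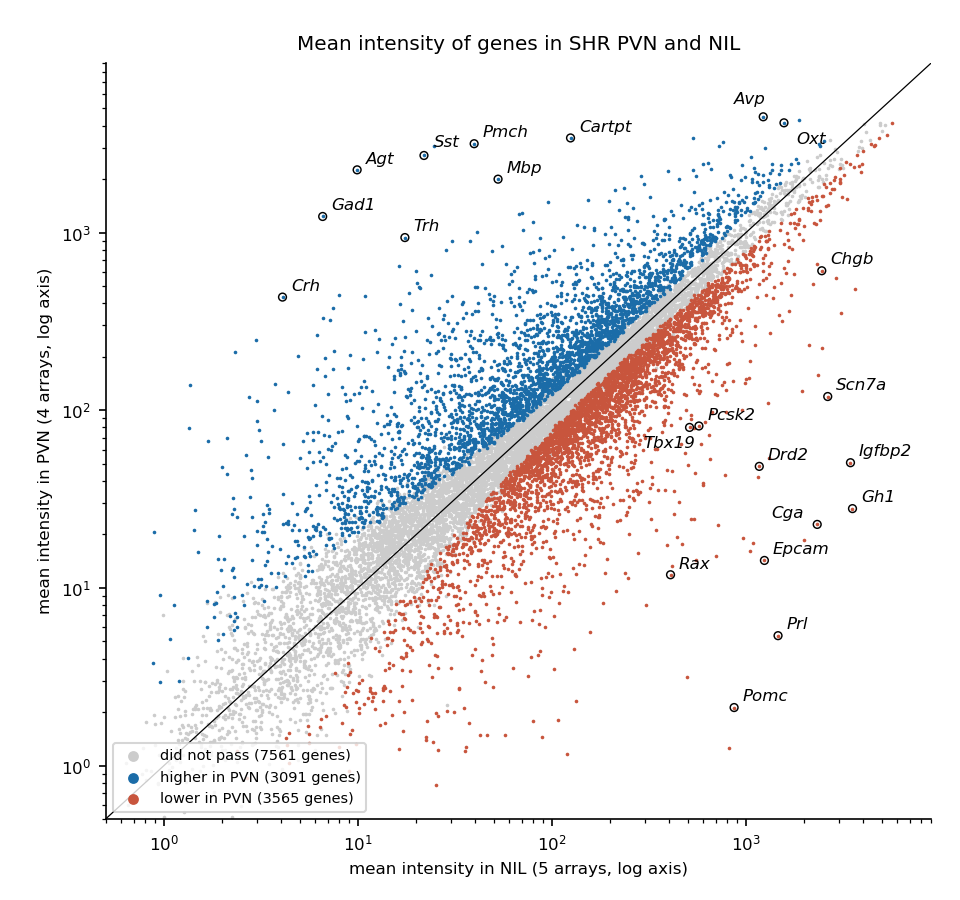
Mean intensity of each of 14217 genes in the NIL (x axis, 5 arrays) and the PVN (y axis, 4 arrays) on log axes, with the line of equal intensity. Blue marks the 3091 genes called higher and red the 3565 called lower in the PVN; Agt, Gad1, Crh and Sst lie far above the line and Pomc, Prl, Epcam and Igfbp2 far below it.

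The genes with the largest rises in the PVN were Agt, Itih3, Sst, Pmch, Gad1, Mbp, Trh, Cartpt, Crh, Cend1, Calb2 and Nrsn2, in this order, ranked with 16 added to each intensity so that dim values do not lead. Agt, the precursor of angiotensin that astrocytes make in brain, had 2253 ± 250 (SD, n = 4) in the PVN and 9.90 ± 6.83 (SD, n = 5) in the NIL, a log2 difference of 8.13 (SE 0.36, adjusted p = 1.79e-10). Itih3, a heavy chain of the inter-alpha-trypsin inhibitors, had 3085 ± 136 and 24.5 ± 5.24 (difference 7.02, SE 0.14). The calcium-binding protein calretinin (Calb2) had 893 ± 68.5 and 30.4 ± 10.3. The neuronal genes Nrsn2 and Cend1 had 444 ± 77.5 against 7.94 ± 3.95 and 647 ± 123 against 16.4 ± 3.67.

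The 12 largest falls, by the same rank, were Gh1, Cga, Adh1c, Igfbp2, Csap1, Pomc, Epcam, Prl, Fndc3c1, Chia, Myh6 and Esm1, in this order, with 4 hormone genes among them. Csap1, a gene first known from salivary glands, had 1.26 ± 0.599 in the PVN and 814 ± 129 in the NIL (difference −9.48, SE 0.33). Adh1c, an alcohol dehydrogenase, had 18.5 ± 8.61 and 1997 ± 212 (difference −6.89, SE 0.27). The heavy chain of cardiac myosin Myh6 had 19.2 ± 8.42 and 967 ± 184. Esm1, a proteoglycan secreted by endothelium, had 3.15 ± 2.86 and 494 ± 88.3. Of the chitinase Chia, the NIL mean of 1080 had an SD of 494, so its level varied more between pools than those of Fndc3c1 (1050 ± 67.9) or Adh1c.

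Vasopressin and oxytocin mRNA were abundant in both structures and higher in the PVN. Avp had intensities of 3893, 4550, 5284 and 4200 on PVN arrays 1, 2, 4 and 5, and of 1056, 1419, 1394, 1060 and 1200 on NIL arrays 1 to 5. Oxt had 3439, 4014, 5234 and 3892 in the PVN, and 1493, 1971, 1527, 1325 and 1525 in the NIL. All PVN values lay above all NIL values for both hormones, and the NIL values lay far above those of the RVLM, where the medians were 16.9 for Avp and 10.3 for Oxt. Both hormones were also bright in the SON, with 4592 to 5610 for Avp and 4183 to 4822 for Oxt. The part of SON axons in the NIL signal was not tested. The log2 difference was 1.90 for Avp (SE 0.15, adjusted p = 6.92e-08), a ratio of means of 3.66, and 1.42 for Oxt (SE 0.15, adjusted p = 2.53e-06). On the PVN arrays Avp had the highest or the second highest intensity of all probe sets and Oxt ranked between 2 and 19, so both probe sets stood at the top of the range of these arrays; whether the signal was saturated there was not tested. On the NIL arrays Avp ranked between 310 and 478.

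Within an array, Avp stood slightly above Oxt in the PVN and below it in the NIL. This ratio of probe set signals does not depend on how an array was scaled, and it was read only as a change between structures. Log2 Avp minus log2 Oxt was 0.12 ± 0.079 (SD, n = 4) in the PVN and −0.35 ± 0.15 (SD, n = 5) in the NIL, a difference of 0.48 (two-sided exact permutation p = 0.0159, the smallest this design allows; 0.0159 also after adjustment over 2 ratios). With PVN array 3 included the difference was 0.47. Prodynorphin (Pdyn), the opioid precursor stored with vasopressin, was set against Avp in the same way, and log2 Pdyn minus log2 Avp was −2.81 ± 0.35 in the PVN and −1.0 ± 0.41 in the NIL, a difference of −1.81 (exact permutation p = 0.0159, the smallest possible). With PVN array 3 included, this difference was −1.56, with an exact permutation p of 0.0159 where the smallest possible was 0.00794. PVN array 3 itself stood at −1.54, above NIL array 2 at −1.55, so the groups then overlapped. Pdyn itself had 638 and 615 as means (difference 0.08, limma adjusted p = 0.721) and did not pass.

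Of 14 measured genes of magnocellular hormones and peptides, 7 were higher in the PVN, 3 were lower and 4 did not pass, with a median difference of 0.85. The appetite-related peptide precursor Cartpt had 3407 ± 254 in the PVN and 125 ± 14.9 in the NIL (difference 4.80, SE 0.12). Galanin (Gal) had 783 ± 191 and 49.1 ± 8.65 (difference 4.00), and cholecystokinin (Cck) 405 ± 109 and 34.8 ± 9.64 (difference 3.57). Magnocellular neurons can make all 3 of these peptides, and none of them overlapped between the groups. The genes that fell were apelin (Apln, −1.09), the nesfatin precursor Nucb2 (−1.25, with 183 ± 52.8 and 431 ± 22.4) and the zinc finger gene Giot1 (−2.57, with 12.8 ± 8.94 and 67.7 ± 14.6). Only 1 of the 2 Apln probe sets ran in this direction, and the other was not called. Scg2, a granin of secretory granules, had nearly the same mean in both structures, 2037 and 1997 (adjusted p = 0.779).

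Genes of parvocellular neurons were mostly higher in the PVN. Of 14 measured genes of parvocellular peptides and releasing hormones, 11 were higher in the PVN, none was lower and 3 did not pass, with a median difference of 2.57. Somatostatin (Sst), the inhibitor of growth hormone release, had 2335, 2615, 2879 and 3031 in the PVN, and 33.0, 18.8, 21.8, 8.49 and 27.3 in the NIL. Its arrays did not overlap, and the log2 difference was 7.11 (SE 0.29, adjusted p = 9.38e-11). For Crh the difference was 7.56 (SE 0.63, adjusted p = 1.55e-07) and for Trh 5.76 (SE 0.14, adjusted p = 8.86e-13). Named after their values were seen, the peptide precursors Adcyap1 (171 ± 4.89 against 6.11 ± 1.26), Nts (103 ± 24.4 against 10.4 ± 4.08) and Npy (399 ± 34.3 against 281 ± 29.9) also passed. Proenkephalin (Penk) had means of 907 and 848 and did not pass (adjusted p = 0.68). PVN array 3, left out of the test, had 143 for Sst and 138 for Trh, under every PVN array used and above every NIL array.

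The PVN pools also gave signal for genes known from hypothalamic neurons outside the nucleus, and which cells gave it was not tested. Melanin-concentrating hormone (Pmch), made in the lateral hypothalamus and zona incerta, had 3736, 3191, 3417 and 2304 in the PVN, and 43.9, 42.9, 25.6, 35.8 and 50.1 in the NIL (difference 6.35, SE 0.20, adjusted p = 8.98e-12). Orexin (Hcrt), of the same area, had 458 ± 248 and 18.4 ± 11.8 (difference 4.94); its SD in the PVN was large beside the mean. The histamine-making enzyme Hdc, of the tuberomammillary nucleus, had 94.9 ± 13.4 and 15.4 ± 3.66. Of 9 measured genes of lateral and neighbouring hypothalamic neurons, 5 were higher, 1 was lower (Galp, −1.87) and 3 did not pass, with a median of 0.51. Their summed intensity was 3736 to 5923 in the PVN and 926 to 1177 in the NIL. This list includes Pdyn, also counted above among magnocellular genes, which hardly differed (0.08) and gave most of the NIL sum. The part of neurons from outside the nucleus in the neuronal results below was not tested.

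Among 18 hypothalamic and forebrain transcription factors, 8 were higher in the PVN, 1 was lower and 9 did not pass, with a median of 0.86. Sim1, which is needed for PVN neurons to form, had 58.8, 69.0, 80.4 and 81.8 in the PVN, and 6.53, 6.14, 0.384, 14.4 and 6.10 in the NIL (difference 4.11, SE 0.75, adjusted p = 0.000433). The POU factor Pou3f3 had 136 ± 36.1 and 11 ± 5.79, the homeobox gene Dlx1 of GABA neurons 193 ± 32.5 and 10.6 ± 3.92, and the nuclear receptor Nr2f1 158 ± 29.4 and 35.8 ± 6.22. Meis2 was lower (−1.50), and no longer called with PVN array 3 included (−1.16). Otp and Pou3f2, which act with Sim1 in development, were dim in both structures and did not pass.

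**Figure D2:**
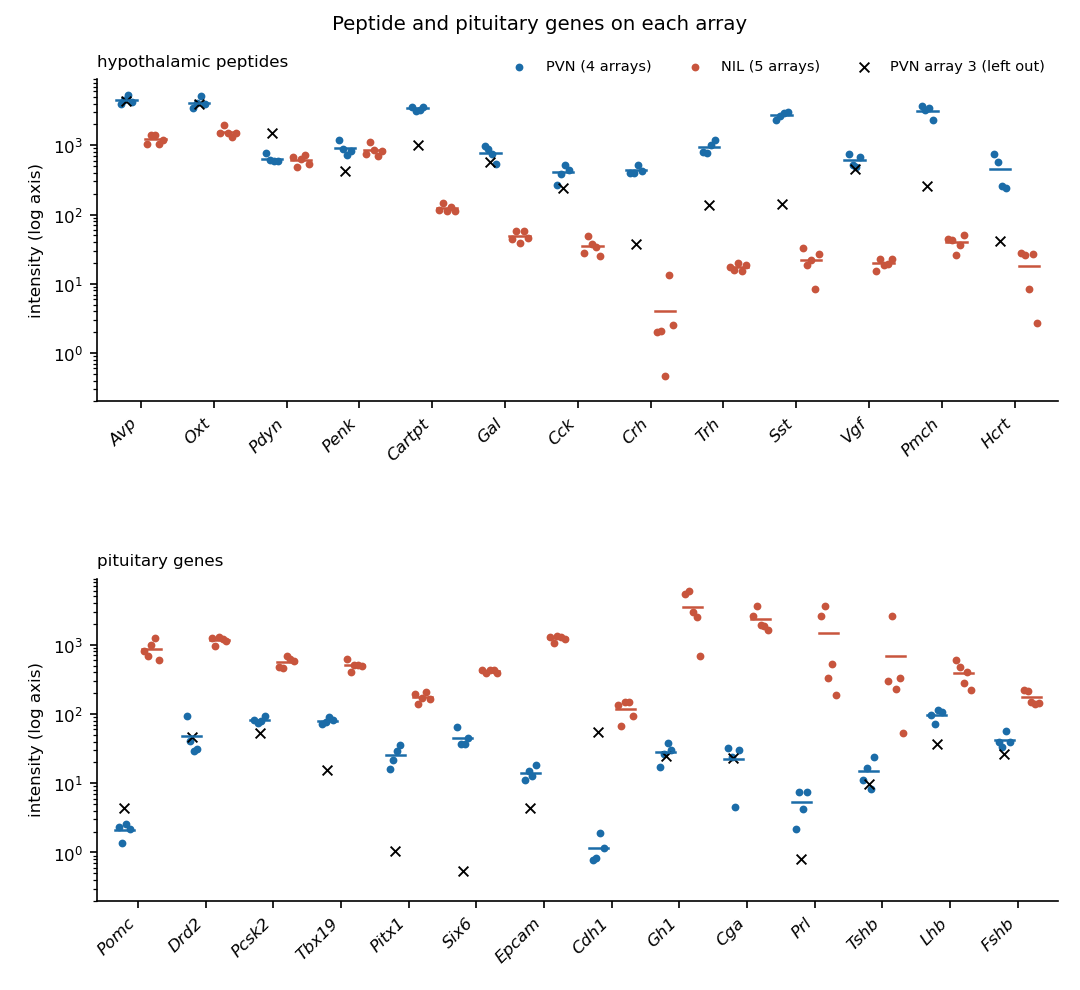
Intensity (log axis) of hypothalamic peptide genes and pituitary genes on each of the 4 PVN arrays (blue) and 5 NIL arrays (red), with group means as bars and the left-out PVN array 3 as a cross; genes were picked from the lists as examples. Pdyn and Penk overlap between the groups and the other hypothalamic peptides do not. Among the pituitary genes, Prl and Tshb spread most over the NIL arrays.

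Peptide and amine genes that rose in the PVN include several whose promoters are known for a cyclic AMP response element, the binding site of CREB-type factors, and the letters TGACGTCA, which read the same on both strands, were therefore searched in RefSeq promoters of build GRCr8 (250 bases before to 50 after the start). The following stretches hold it, with the motif in capitals, each shown because the gene makes, packs or is a peptide or amine messenger and is named here as higher in the PVN. Coordinates are chr2:32991330-32991417 (minus strand) for Cartpt, chr12:25277063-25277150 (minus) for Vgf, chr1:207508240-207508327 (minus) for Th, chr1:268399929-268400016 (plus) for Slc18a2 and chr11:90461537-90461566 (plus) for Sst. The motif begins 142 bases before the RefSeq start in Cartpt, 90 in Vgf, 69 in Th and 52 in Slc18a2. In Sst it begins at base 3, counted with the start base included.
Cartpt: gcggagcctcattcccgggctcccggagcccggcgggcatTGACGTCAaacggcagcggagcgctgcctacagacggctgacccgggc
Vgf: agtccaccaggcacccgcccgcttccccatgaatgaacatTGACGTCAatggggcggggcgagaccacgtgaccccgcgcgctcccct
Th: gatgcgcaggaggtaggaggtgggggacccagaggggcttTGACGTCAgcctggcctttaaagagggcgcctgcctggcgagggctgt
Slc18a2: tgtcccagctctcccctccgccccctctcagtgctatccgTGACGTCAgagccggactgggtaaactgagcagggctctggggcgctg
Sst: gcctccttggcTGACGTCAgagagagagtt

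TGACGTCA was found in 79 of 2497 promoters of genes called higher in the PVN (3.16%) and in 75 of 2957 of genes called lower (2.54%), beside 334 of 11700 promoters of measured genes (2.85%) and 612 of all 33469 (1.83%). Among the named genes, which were chosen by their values, 7 of 73 that were higher (9.59%) and 3 of 68 that were lower (4.41%) held it. Besides the 5 shown, these were Abcg2 and Jund, both higher, and Giot1, Ier2 and Dusp1, which were lower. Another motif searched on both strands, TAATCC, the letters bound by bicoid-type homeobox factors such as Pitx1 and Otx2, was found in 4.93% of promoters of genes called higher, 5.17% of those called lower and 5.54% of those measured. Promoters matched 141 of 196 named genes. A match is a description of the letters and no evidence of binding.

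Pomc, the proopiomelanocortin gene that melanotrophs express, was far higher in the NIL. Its intensity was 806, 687, 993, 1243 and 611 on NIL arrays 1 to 5, and 2.35, 1.39, 2.55 and 2.18 in the PVN, with no overlap (difference −8.64, SE 0.23, adjusted p = 1.5e-12). The PVN values are far under the array medians, so the NIL level is the measured side of this difference. On the NIL arrays, with control probe sets left out, Pomc ranked between 359 and 1177, under the anterior pituitary genes Gh1 and Cga on each of them. Which cells of the NIL pools gave the Pomc signal was not tested. The prohormone convertase Pcsk2, which cuts proopiomelanocortin to alpha-MSH, had 81.5 ± 7.82 in the PVN and 572 ± 98.2 in the NIL (−2.77, SE 0.13). Tbx19, the factor that drives Pomc, had 80.0 ± 8.91 and 511 ± 76.7 (−2.65, SE 0.12), and the difference of Drd2 was −4.73 (SE 0.30, adjusted p = 8.06e-09). Pcsk1 and Pax7, a convertase and the factor that sets melanotroph identity, are not named by a single-gene probe set here.

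Of 13 measured melanotroph genes, 6 were lower in the PVN, 1 was higher and 6 did not pass, with a median of −0.57. The exception was Mc4r, a receptor for the melanocortins, with 71.2 ± 7.16 in the PVN and 7.05 ± 5.66 in the NIL (3.80). Of 14 pituitary transcription factors, 6 were lower, 2 were higher and 6 did not pass, with a median of −0.78. Pitx1 had 25.8 ± 8.49 and 175 ± 27.9 (−2.79), Six6 45.7 ± 13.2 and 414 ± 23.6 (−3.19) and Eya1 58.4 ± 14 and 152 ± 8.36 (−1.38). The factor of anterior lobe lineages Pou1f1 had 28.6 in the NIL and did not pass (adjusted p = 0.0811), and Sox2 had 761 and 680 (adjusted p = 0.247).

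Hormone genes of the anterior pituitary were bright in the NIL pools and varied widely among them. Growth hormone (Gh1) had 5471, 6068, 2957, 2494 and 693 on NIL arrays 1 to 5, and 17.4, 26.2, 37.7 and 30.4 in the PVN. Prolactin (Prl) had 2586, 3677, 331, 523 and 190 in the NIL, and 2.22, 7.50, 4.30 and 7.50 in the PVN. Thyrotropin beta (Tshb) had 298, 2577, 233, 334 and 52.9 in the NIL, and 11.1, 16.6, 8.30 and 24.1 in the PVN. NIL arrays 1 and 2 were highest in Gh1 and Prl, array 2 alone in Tshb, and array 5 was lowest in all 3, while the groups never overlapped. The shared alpha subunit Cga spread less, with 2594, 3649, 1899, 1846 and 1644.

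Of 11 measured anterior pituitary hormones and receptors, 8 were lower in the PVN, 1 was higher (Trhr, 1.93) and 2 did not pass, with a median of −2.59. Differences were −6.67 for Gh1 (SE 0.46), −7.34 for Prl (SE 0.71), −6.92 for Cga (SE 0.48) and −4.49 for Tshb (SE 0.74); the standard error of Epcam was 0.13. The summed intensity of the list was 436 to 549 in the PVN, and 12190, 17063, 6109, 6037 and 3149 on NIL arrays 1 to 5. Pomc and Epcam did not follow this order. Pomc was highest on NIL array 4, and Epcam was 1214 on array 5, which had the least Gh1, and 1067 on array 2, which had the most. The part of anterior lobe cells in the NIL results, those of Pomc and Epcam included, was not tested.

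Genes of epithelial cells, from which the intermediate lobe is built, were lower in the PVN almost throughout. Of 25 measured epithelial genes, 20 were lower, 1 was higher and 4 did not pass, with a median of −2.09. Epcam differed by −6.44 (SE 0.13, adjusted p = 1.35e-13). The adhesion molecule Cdh1 had 1.17 ± 0.513 in the PVN and 119 ± 37.4 in the NIL, the keratin Krt18 121 ± 5.63 and 708 ± 85.0, and the splicing regulator Esrp1 35.6 ± 12.2 and 271 ± 15.9. The exception was Lgals3, a galectin that macrophages also make, with 257 ± 20.5 and 141 ± 19.7 (0.89), no longer called with PVN array 3 included (0.57). The summed intensity of the list was 2168 to 2470 in the PVN and 5877 to 6804 in the NIL.

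Most measured genes of the machinery that makes and packs secreted proteins were lower in the PVN, by steps of different size. Of 47 genes of the endoplasmic reticulum and Golgi, 35 were lower, 1 was higher and 11 did not pass, with a median of −0.55 against −0.02 over all genes. Hspa5, the main chaperone of the endoplasmic reticulum, named after its value was seen, had 1446 ± 67.4 and 2166 ± 106 (−0.56, adjusted p = 0.00333). The receptor Kdelr3, which returns chaperones from the Golgi, had 22.2 ± 6.29 and 161 ± 14.3 (−2.87), Kdelr2 333 ± 14.2 and 790 ± 73.0 (−1.22), the coat protein Sec24d 163 ± 9.76 and 398 ± 29.0 (−1.26) and the translocon subunit Sec61a1 106 ± 10.9 and 273 ± 17.8 (−1.34). Canx was the one called higher (0.43), but its probe sets disagreed and their mean gave −0.10. The count of genes called lower was 28 with PVN array 3 included and lay between 28 and 41 over all settings.

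Granule genes gave no common direction. Of 30 genes of prohormone processing and granules, 10 were lower in the PVN, 5 were higher and 15 did not pass, with a median of −0.21. Chromogranin B (Chgb) had 609 ± 30.3 in the PVN and 2456 ± 325 in the NIL (−1.98, SE 0.13, adjusted p = 1.58e-08). Rab27a and its effector Sytl4, which carry granules to the membrane, had 43.3 ± 6.08 against 775 ± 56.1 (−4.14) and 26.6 ± 7.61 against 243 ± 23.5 (−3.21). Vgf, a neuropeptide precursor, ran the other way with 604 ± 121 and 19.9 ± 3.28 (4.95), as did the glutaminyl cyclase Qpct with 414 ± 26.9 and 28.9 ± 5.98 (3.89) and the priming factor Cadps (1.53). Of the 2 Cadps probe sets, 1 was higher in the PVN and the other was not called. The amidating enzyme Pam had 1421 and 1351 and the granins Scg2 and Scg3 differed by 0.05 and 0.06, and none of the 3 passed.

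Pituicytes, the glia of the posterior lobe, were marked in the NIL by Rax, a homeobox gene of the hypothalamic floor and neurohypophysis. Rax had 11.9 ± 5.87 in the PVN and 408 ± 51.7 in the NIL (−5.20, SE 0.22, adjusted p = 1.13e-10). The atypical sodium channel gene Scn7a had 111, 118, 108 and 141 in the PVN, and 2463, 2790, 2682, 2366 and 2880 in the NIL, without overlap (−4.44, SE 0.12). Adrenomedullin (Adm) had 11.3 ± 4.51 and 247 ± 37.8 (−4.53), and the thyroid hormone-binding protein Crym 86.2 ± 25.6 and 615 ± 148 (−2.83). Of 18 pituicyte genes, 11 were lower in the PVN, 4 were higher and 3 did not pass, with a median of −1.24. The 4 that rose were S100b (2.11), Slc1a3 (1.82) and Hes5 (2.31), which astrocytes or their precursors also express, and the matrix proteoglycan Vcan (0.60), which lost its call when its probe sets were averaged (0.15). For Hes5, 1 of 2 probe sets ran in this direction, and the other was not called.

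**Figure D3:**
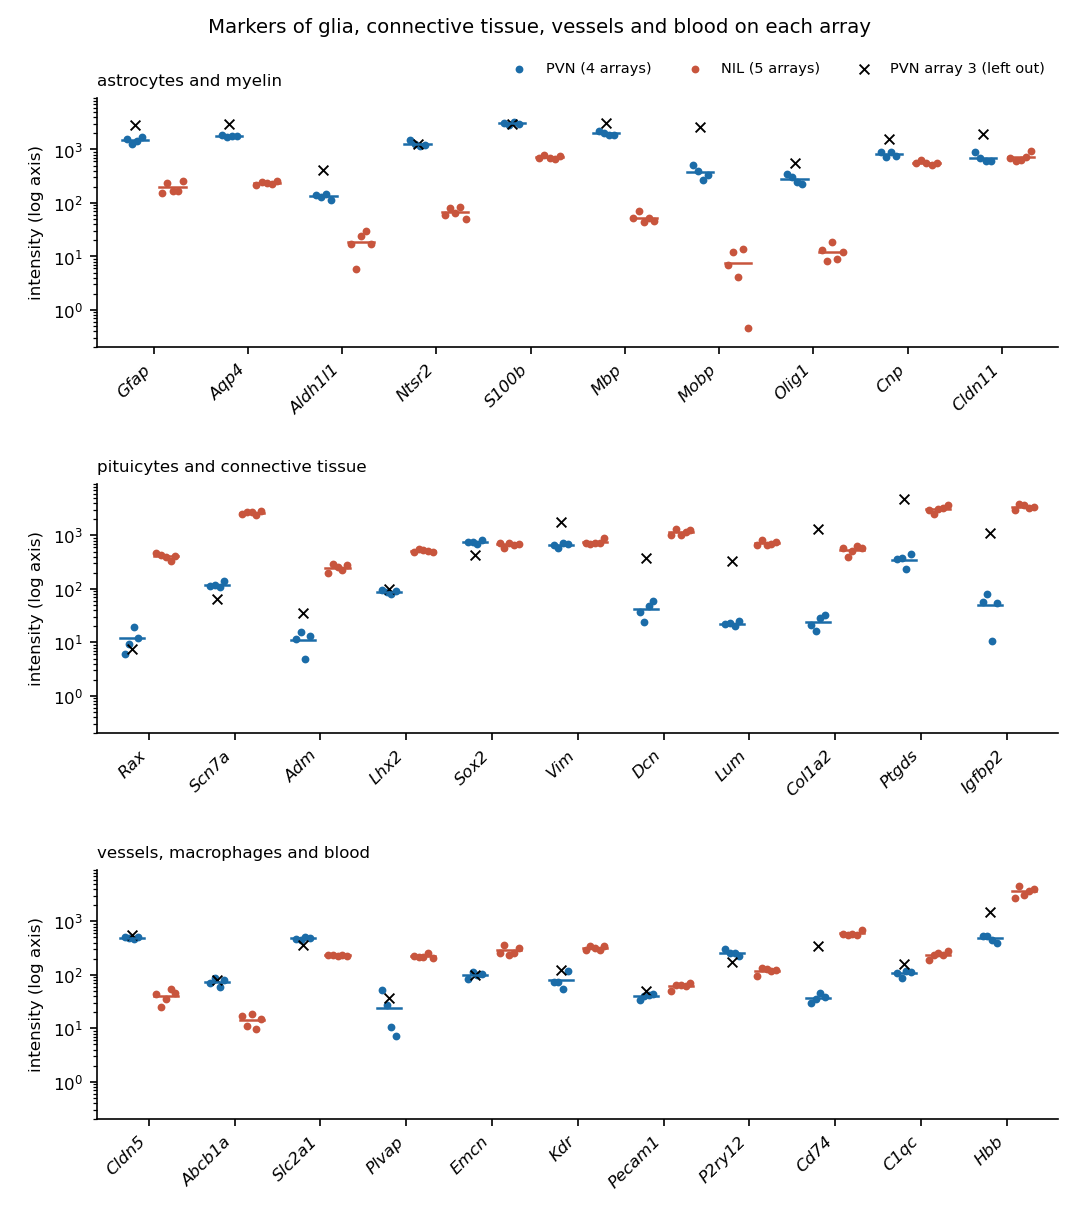
Intensity (log axis) of markers of glia, connective tissue, vessels, macrophages and blood on each PVN array (blue, 4), each NIL array (red, 5) and the left-out PVN array 3 (cross), with group means as bars; genes were picked from the lists as examples. Dcn, Lum, Col1a2, Ptgds and Igfbp2 are high on PVN array 3 but not on the 4 PVN arrays used.

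Astrocyte and myelin genes were higher in the PVN without exception among those called. Of 16 astrocyte genes 14 were higher and 2 did not pass, with a median of 2.05. The filament protein Gfap had 1506 ± 198 in the PVN and 196 ± 45.7 in the NIL (2.99), the water channel Aqp4 1787 ± 56.5 and 236 ± 16.3 (2.95), the neurotensin receptor Ntsr2 1268 ± 153 and 67.6 ± 14.4 (4.27) and Mlc1 802 ± 84.2 and 103 ± 14.1 (3.00). Of 21 oligodendrocyte and myelin genes, 16 were higher and 5 did not pass, with a median of 2.38. Myelin basic protein (Mbp) had 2169, 2060, 1867 and 1893 in the PVN, and 52.7, 70.3, 43.2, 51.9 and 45.3 in the NIL (5.29, SE 0.15, adjusted p = 3.49e-12). Mobp had 375 ± 107 and 7.46 ± 5.49 (6.32), Olig1 282 ± 56.5 and 12.2 ± 4.24 (4.59) and Bcas1 394 ± 70.6 and 16.4 ± 4.03 (4.63). Cldn11, a claudin of myelin that other epithelia also use, had 700 and 723 and did not pass (adjusted p = 0.934).

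Genes of the blood-brain barrier were mostly higher in the PVN. Of 14 genes of blood-brain barrier endothelium, 10 were higher in the PVN, 2 were lower and 2 did not pass, with a median of 1.23. The tight junction protein Cldn5 had 495 ± 14.1 in the PVN and 41.0 ± 11 in the NIL (3.66, SE 0.18), the drug pump Abcg2 151 ± 7.14 and 22.5 ± 6.81 (2.82), and the transporter Slco1a4 403 ± 19.8 and 94.3 ± 17.6 (2.14). Ocln, a junction protein that epithelia share, was lower (105 ± 14.6 against 377 ± 29.2, −1.83). Plvap, which forms the diaphragms of fenestrated capillaries, had 24.1 ± 20.5 and 225 ± 16.4 (−3.61, SE 0.45, adjusted p = 1.28e-05), and Emcn 99.0 ± 12.3 and 286 ± 50.4 (−1.50).

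Fenestrated and peripheral vessels gave no single direction as a list, with 3 of 12 genes higher (Vwf, Vcam1 and Ackr1), 4 lower (Plvap, Emcn, Icam1 and Igfbp3) and 5 that did not pass, and a median of 0.10. Of 13 genes of all endothelium, 2 were higher, 5 were lower and 6 did not pass, with a median of −0.25. The VEGF receptor Kdr had 79.5 ± 26.5 and 321 ± 29.7 (−2.04) and Eng 59.9 ± 5.26 and 118 ± 12.2 (−0.95), while Tek, Tie1 and Flt1 did not pass. The 2 that rose were Ramp2 (0.89) and Sox17 (0.73), the latter not called as the mean of its probe sets (0.13).

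Connective tissue genes were lower in the PVN in all that passed. Of 18 genes of meninges and fibroblasts, 13 were lower and 5 did not pass, with a median of −2.09. Igfbp2, an insulin-like growth factor binding protein, had 57.5, 79.1, 10.7 and 55.3 in the PVN, and 3038, 3794, 3697, 3287 and 3447 in the NIL (−6.38, SE 0.44, adjusted p = 1.94e-08). The matrix proteoglycans Dcn and Lum had 42.2 ± 15.3 against 1157 ± 144 (−4.82) and 22.5 ± 2.15 against 717 ± 61.1 (−4.97), and the collagen Col1a2 24.5 ± 6.82 against 537 ± 94.6 (−4.45). The summed list was 1106 to 1344 on the 4 PVN arrays and 10621 to 12394 in the NIL, but 13919 on PVN array 3 and 9479 to 17432 in the SON. With PVN array 3 included, 11 of the 18 were called lower and 1 was called higher.

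In a wider list of collagens, laminins and integrins, 23 of 36 were lower, 3 were higher and 10 did not pass, with a median of −1.21. Lama2, a laminin chain of basement membranes, had 20.2 ± 13.0 and 248 ± 18.5 (−3.92), and Col15a1 28.3 ± 9.41 and 160 ± 25.7 (−2.51). The integrins Itga6 (0.70), Itga7 (0.81) and Itgb6 (1.62) rose, of which Itga7 lost its call as the mean of its probe sets (0.40) and Itgb6 when all SHR arrays were fitted together. Haemoglobin beta (Hbb), a sign of blood, had 481 ± 70.4 in the PVN and 3646 ± 719 in the NIL (−2.89), and 2 of 4 red cell genes were lower. The part of blood in the other NIL results was not tested.

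Among 20 genes of microglia and macrophages, 10 were lower in the PVN, 3 were higher and 7 did not pass, with a median of −0.48. Cd74, which guides antigen-presenting molecules, had 37.7 ± 6.76 and 597 ± 62.1 (−3.97, SE 0.11, adjusted p = 2.38e-12), the complement gene C1qc 106 ± 12.9 and 238 ± 30.4 (−1.14) and the lysozyme Lyz2 251 ± 24.4 and 547 ± 73.4 (−1.09). P2ry12, a purine receptor of brain microglia, ran the other way with 261 ± 33.7 and 120 ± 16.4 (1.15, SE 0.15, adjusted p = 2.04e-05). Csf1r, the receptor that these cells need to survive, had 185 and 175 and did not pass. Of 9 genes of choroid plexus and ependyma, 5 were higher and 2 were lower. Among those higher were the cilia genes Foxj1 (271 ± 35.9 against 52.9 ± 9.85) and Tekt1 (302 ± 16.5 against 99.5 ± 11), the folate receptor Folr1 (164 ± 21.1 against 37.3 ± 10.8) and the choroid plexus transport protein Ttr (122 ± 40.7 against 38.0 ± 13.5). Tekt1 was 32.0 on PVN array 3 and not called with it (1.00). The homeobox gene Otx2 had 1.80 ± 1.18 and 107 ± 32.2 on its chosen probe set, while its other probe set was called in the opposite direction, so its direction is uncertain.

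**Figure D4:**
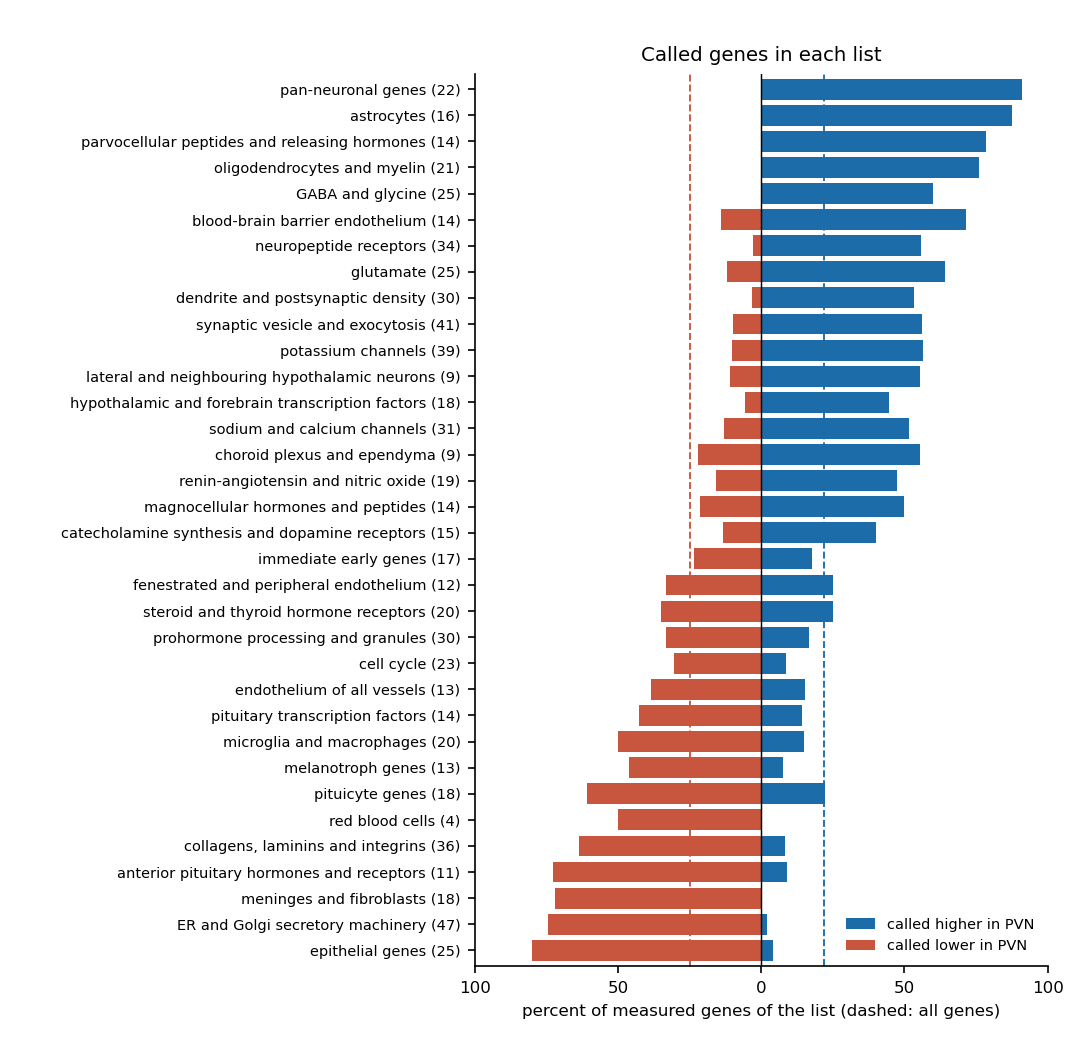
Percent of the measured genes of each list called higher (blue, to the right) or lower (red, to the left) in the PVN, with list sizes in brackets and the shares over all genes (21.7% and 25.1%) as dashed lines. Pan-neuronal, astrocyte, parvocellular, myelin and GABA lists hold no gene called lower, and the lists of red blood cells and of meninges and fibroblasts hold none called higher.

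Neuronal transcripts were higher in the PVN, yet many were well above the array median in the NIL too. Of 22 pan-neuronal genes, 20 were higher and 2 did not pass, with a median of 1.68. The growth-associated Stmn2 had 1532 ± 100 and 152 ± 13.6 (3.36), the tubulin Tubb3 774 ± 53.9 and 79.4 ± 11.1 (3.32) and the neurofilament Nefm 430 ± 23.9 and 60.4 ± 11.2 (2.87). Named after their values were seen, the SNARE protein Snap25 had 2421 ± 170 and 1706 ± 104 (0.53, adjusted p = 0.00402) and the microtubule-associated Map2 means of 1643 and 1357 (0.30, adjusted p = 0.119). Gap43 was called higher by 2.71, but its other probe set was called in the opposite direction and their mean gave 0.04.

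Genes of synaptic vesicles and exocytosis were higher for 23 of 41, lower for 4 and not called for 14, with a median of 0.71. Syngr3, a vesicle membrane protein, had 1013 ± 193 and 40.8 ± 9.82 (4.67, SE 0.18), the fusion clamp Cplx1 582 ± 152 and 61.8 ± 10.7 (3.24), and Napb and Nsf, which take SNARE complexes apart, differed by 2.67 and 2.40. The GTPase Rab3b had 439 ± 79.3 and 727 ± 60.2 (−0.72, SE 0.14, adjusted p = 0.000813) and was among the 4 that fell. The others were Unc13b (−2.25) and Syngr1 (−1.29), both dim, and Sv2b (−0.90), of which Syngr1 and Sv2b lost their calls as means of probe sets (−0.35 and −0.05). The related Rab3a, named after its value was seen, rose by 1.81.

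Of 30 genes of dendrites and the postsynaptic density, 16 were higher in the PVN, 1 was lower and 13 did not pass, with a median of 0.87. The scaffold Shank1 had 484 ± 94.4 and 130 ± 32.5 (1.94), the kinase subunit Camk2b 858 ± 60.4 and 299 ± 20.4 (1.54), and neurogranin (Nrgn) 97.4 ± 23.8 and 23.9 ± 5.83 (2.06). Dlg4, the main scaffold of excitatory synapses, had means of 208 and 232 (adjusted p = 0.413), and Homer1 of 88.9 and 86.6 (adjusted p = 0.75). The median of this list lay under that of the pan-neuronal list, and this order was not tested.

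**Figure D5:**
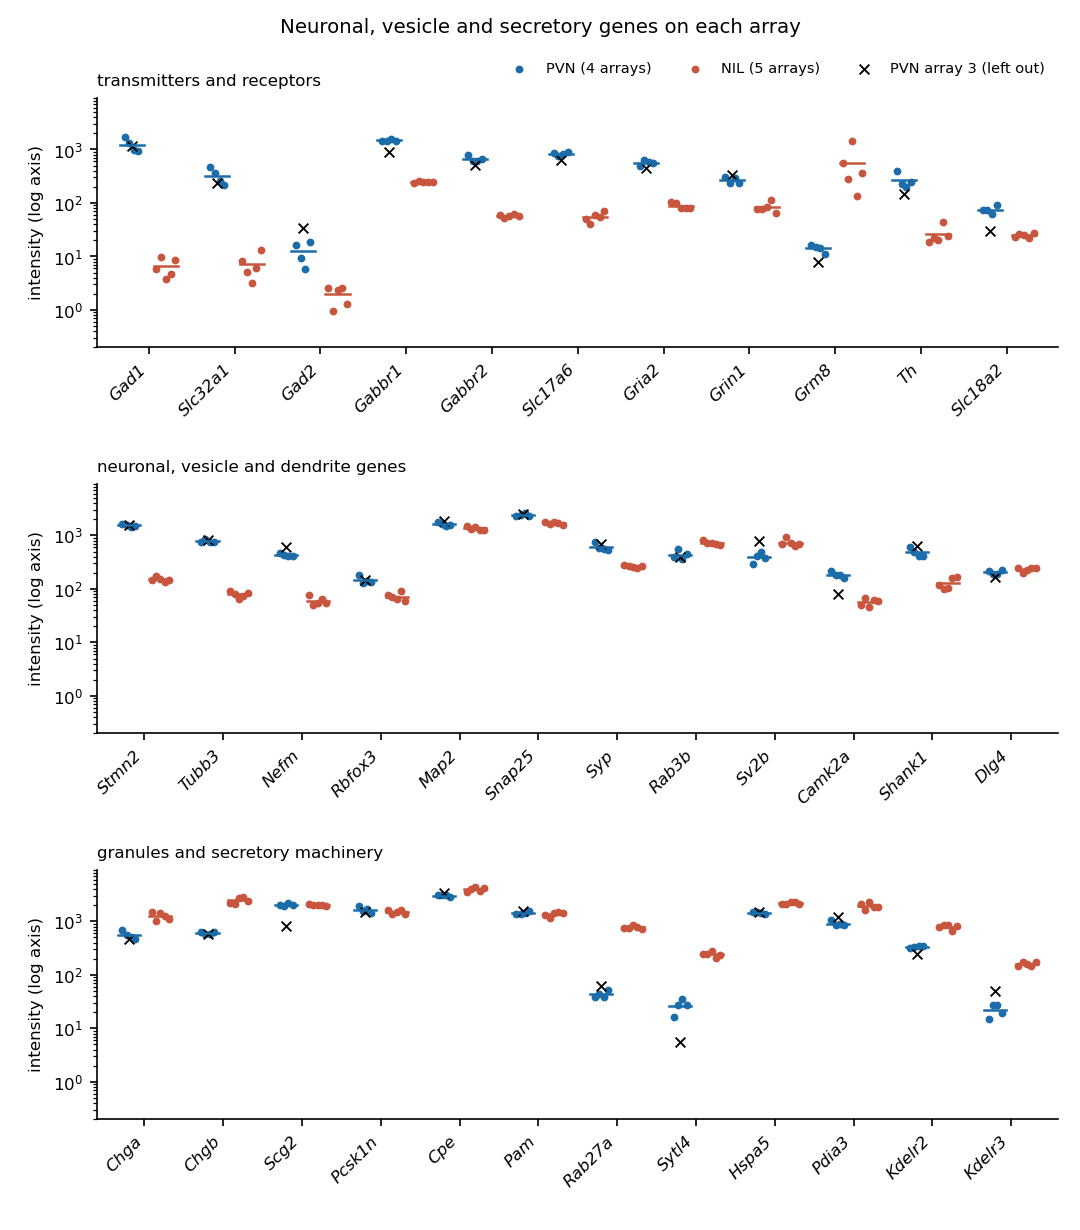
Intensity (log axis) of transmitter, neuronal, vesicle and secretory genes on each PVN array (blue, 4), each NIL array (red, 5) and the left-out PVN array 3 (cross), with group means as bars; genes were picked from the lists as examples. Gad1, Slc32a1 and Slc17a6 separate the groups widely, Scg2 and Pam overlap, and Chgb, Rab27a, Sytl4 and the Kdelr genes are higher in the NIL.

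Genes of transmitter systems were higher in the PVN than in the NIL, and the main ones were bright in the other brain regions too. Gad1 had 449 to 930 in the SON and 725 to 893 in the RVLM, and the vesicular glutamate transporter Slc17a6 had 576 to 686 and 646 to 785. Of 25 genes of GABA and glycine, 15 were higher, none was lower and 10 did not pass, with a median of 1.86. Gad1 differed by 7.62 (SE 0.30, adjusted p = 5.44e-11), the vesicular transporter Slc32a1 had 323 ± 114 and 7.19 ± 3.79 (5.61), the glycine receptor Glra2 212 ± 16.6 and 2.32 ± 0.573 (6.57) and the GABA-B receptor subunit Gabbr2 664 ± 76.3 and 57.8 ± 3.52 (3.54). Gad2, also an abundant gene of GABA neurons, had a dim probe set (12.6 ± 5.86 and 1.96 ± 0.766). Among 25 glutamate genes, 16 were higher, 3 were lower and 6 did not pass, with a median of 1.25. The transporter Slc17a6 had 837 ± 48.5 and 55.5 ± 10.9 (3.96), and the AMPA receptor subunit Gria2 567 ± 54.8 and 88.5 ± 11.8 (2.71). Grm8 was called lower (−4.82) with a NIL mean of 553 and an SD of 504, but 2 of its 3 probe sets were called the other way.

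Of 15 genes of catecholamines and dopamine receptors, 6 were higher, 2 were lower and 7 did not pass, with a median of 0.74. Tyrosine hydroxylase (Th), which makes the precursor of dopamine, had 267 ± 85.5 and 26.0 ± 10.1 (3.41, SE 0.26), the vesicular transporter Slc18a2 75.4 ± 11.6 and 24.9 ± 2.33 (1.62), and Drd1 38.9 ± 1.71 and 11.3 ± 4.39 (1.91). The steps after dopamine, Dbh and Pnmt, were under 14 in both structures and did not pass.

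Receptors for neuropeptides were higher in the PVN for 19 of 34, lower for 1 and not called for 14, with a median of 0.99, and 17 of the 34 had means under 40 in both structures. Adcyap1r1, the PACAP receptor, had 715 ± 58.7 and 91.4 ± 21.3 (3.02), the nociceptin receptor Oprl1 134 ± 12.6 and 8.28 ± 6.87 (4.35) and the orexin receptor Hcrtr2 92.5 ± 13.3 and 8.79 ± 6.45 (3.82). The somatostatin receptor Sstr1 had 144 ± 15.7 and 19.9 ± 5.25 (2.91), not called as the mean of its 3 probe sets (0.68), nor was Trhr (0.72). The only receptor that fell was Avpr1b, the vasopressin receptor of pituitary corticotrophs, with 19.3 ± 4.38 and 72.5 ± 18.6 (−1.87, SE 0.23, adjusted p = 9.68e-06). Over all settings the count of receptors called higher lay between 1 and 20, and the lowest counts came with filters on low values, which left few of these genes tested.

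Potassium channel genes were higher for 22 of 39, lower for 4 and not called for 13, with a median of 0.73. Kcnip4 and Kcnip1, partners of A-type channels, had 353 ± 23.9 against 36.1 ± 3.93 (3.32) and 280 ± 20.6 against 30.5 ± 9.86 (3.29), and the fast channel Kcnc2 516 ± 28.5 against 128 ± 15.9 (2.05). The large-conductance calcium-activated channel Kcnma1, known from nerve terminals and endocrine cells, had 44.4 ± 3.25 and 543 ± 37.5 (−3.59, SE 0.11, adjusted p = 9.07e-12), and 2 of its 3 probe sets were called in this direction. Its subunit Kcnmb4, named after its value was seen, ran the other way with 320 ± 26.3 and 79.7 ± 10.6 (2.04). The other channels that fell were Kcnk2 (−0.87), Kcnh2 (−0.63) and Kcnip3 (−1.40), the last not called as the mean of its probe sets (−0.92).

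Of 31 sodium and calcium channel genes, 16 were higher, 4 were lower and 11 did not pass, with a median of 0.66. The neuronal sodium channel Scn1a had 189 ± 38.3 and 44.4 ± 6.23 (2.11), and the N-type calcium channel Cacna1b, which triggers release at terminals, 234 ± 31.0 and 55 ± 17.3 (2.16). Besides Scn7a, the auxiliary subunits Scn4b (−1.24) and Cacna2d1 (−0.40) were lower. Cacna1d was called lower (−1.69), but its probe sets disagreed and their mean gave 0.38.

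Among 20 genes of steroid and thyroid hormone signalling, 7 were lower, 5 were higher and 8 did not pass, with a median of −0.11. Hsd11b1, which regenerates active corticosterone in cells, had 58.0 ± 9.35 and 228 ± 51.7 (−1.93, SE 0.19, adjusted p = 8.82e-07). The glucocorticoid-responsive kinase Sgk1 had 125 ± 40.7 and 282 ± 46.9 (−1.18), with 610 on PVN array 3, and was not called with that array (−0.70). Rxrg rose by 0.97 on both probe sets called. Nr3c1, the glucocorticoid receptor, was called higher by 0.40, but the mean of its probe sets gave −0.42 with no call. Thra (0.97) and Thrb (1.01) were not called as means of probe sets (0.52 and 0.53).

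Components of angiotensin and nitric oxide signalling, which bear on blood pressure, were split. Of 19 genes, 9 were higher in the PVN, 3 were lower and 7 did not pass, with a median of 0.64. Beside Agt, the soluble guanylate cyclase subunit Gucy1b1 had 445 ± 29.7 and 132 ± 6.29 (1.78, SE 0.11), and Ddah1, which clears an inhibitor of nitric oxide synthase, 383 ± 26.6 and 155 ± 18.3 (1.34). The angiotensin receptor Agtr1a had 81.2 ± 17.7 and 36.8 ± 4.21 (1.15), with 19.4 on PVN array 3, and was not called with that array (0.76). Angiotensin-converting enzyme (Ace) was lower, with 35.1 ± 7.04 and 276 ± 44.4 (−2.96, SE 0.16, adjusted p = 1.88e-09), as was the aminopeptidase Enpep (−1.26).

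Immediate early genes, which follow recent activity, gave no common direction. Of 17, 3 were higher in the PVN, 4 were lower and 10 did not pass, with a median of −0.15. The shares called higher (17.6%) and lower (23.5%) were near those over all genes. Nr4a1, which corticotropin-releasing hormone induces in Pomc cells, had 48.7 ± 10.1 and 221 ± 80.4 (−2.11, SE 0.23, adjusted p = 2.51e-06). Ier2 (−1.47) and Klf4 (−0.83) were also lower. Jun was higher (0.52) but not with PVN array 3 included (0.42) or without PVN array 2 (0.46), and Dusp1 was lower (−1.06) but not with that array (−0.75) or as the mean of its probe sets (−0.30). Fos, named after its value was seen, had 77.8 to 158 in the PVN and 55.4 to 156 in the NIL and did not pass (adjusted p = 0.518).

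Most cell cycle genes did not pass, and the same held over all genes (7561 of 14217). Of 23, 7 were lower in the PVN, a share near the 25.1% over all genes, 2 were higher and 14 did not pass, with a median of −0.34, and 11 of the 23 had means under 40 in both structures. Cyclin D2 (Ccnd2) had 219 ± 27.9 and 689 ± 64.8 (−1.63), the replication helicase subunit Mcm2 31.2 ± 4.74 and 83.6 ± 8.02 (−1.40), and the proliferation marker Mki67 16.6 ± 5.18 and 37.3 ± 2.76 (−1.20), at or under the array median. The mitotic kinase gene Aurkb had 432, 433, 392 and 510 in the PVN, and 51.7, 52.9, 34.3, 71.4 and 41.1 in the NIL. All 4 PVN arrays used were high, without overlap (3.20, SE 0.17, adjusted p = 1.62e-09), while PVN array 3 had 27, the SON 30.7 to 37.2 and the RVLM 3.18 to 21.2. The high level was thus found on these 4 arrays and on no other SHR array. The other gene called higher, Ccne1 (0.71), was dim and lost its call without any 1 of NIL arrays 1, 4 and 5 or PVN arrays 1 and 4 (0.59 to 0.69).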

How the data were processed

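RNA from each pool of 5 rats was kept in RNAlater, extracted with QIAzol and RNeasy columns, amplified with MessageAmp II and hybridised to Affymetrix rat arrays, per the labels' protocols. The authors deposited 1 linear intensity per probe set and array; the submitters' processing notes name GCOS 1.2, while scaling settings and detection calls were not given in the sources used here. From the 31099 probe sets, 57 controls were left out and 31042 tested, of which 20826 carry 1 gene symbol, 436 several and 9780 none. These give 14217 genes, each read from its brightest probe set. Log2 intensity, with no pseudocount and no filter on low values, was shifted to a common array median and fitted with limma 3.58.1 (R 4.3.3; lmFit, eBayes with an intensity trend) on 4 PVN and 5 NIL arrays. A call is a Benjamini-Hochberg adjusted p under 0.05 over all probe sets, higher or lower means in the PVN, and a difference printed in brackets is PVN minus NIL on the log2 scale. The fit was tested on simulated data.

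The members and lists were chosen with earlier results of these data known, so list counts are descriptions. Named genes are Avp, Oxt, Pomc, Crh, Trh, Gad1, Drd2, Epcam, Pcsk1, Pcsk2, Pax7, Tbx19 and Sim1, the 12 largest rises and 12 largest falls by mean log2(intensity + 16) among called genes without overlap, and up to 4 such genes per list and direction, 196 in all. Genes with placeholder symbols were left out of these ranks. Other genes, among them those given as not passing and single exceptions in a list, were named after their values were seen. Alternatives were scaling, pseudocounts, filters, the variance model, a replicate block, other arrays in the fit, the mean of a gene's probe sets and leaving out each array. Promoters are RefSeq's, build GRCr8.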

Additional observations from a re-analysis of the deposited data

Results flagged for a closer look

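A single array stood far from the others of its group in 18 of 392 groups of values examined, beside the 19.6 that chance gives at about 1 in 20. On NIL array 4, Crh had 13.27, above the other NIL arrays at 0.4711 to 2.572. Lef1 had 39.04 there, above a range of 20.4 to 25.75. Grm3 had 9.544 there, above a range of 0.7123 to 1.44. Th had 43.69 there, above a range of 18.92 to 24.54. Cacng3 had 23.48 there, above a range of 0.8814 to 1.348. Mki67 had 42.06 there, above a range of 35.02 to 36.88. On NIL array 2, Tshb had 2577, above the other NIL arrays at 52.86 to 333.8. Otx2 had 162.1 there, above a range of 83.05 to 103.4. Ace had 353.9 there, above a range of 244.1 to 262.8. On PVN array 1, Trhr had 79.11, below the other PVN arrays at 125.6 to 130. Syngr3 had 1301 there, above a range of 897.5 to 939.8. Sec61a1 had 122.3 there, above a range of 99.21 to 102.1. On PVN array 4, Grik4 had 42.76, above the other PVN arrays at 30.15 to 32.06. Ccnd2 had 260.1 there, above a range of 199.3 to 207.8. Col3a1 had 57.79 there, above a range of 30.19 to 33.88. On NIL array 5, Cd74 had 704.2, above the other NIL arrays at 544.5 to 585.9. Oprl1 had 20.18 there, above a range of 3.694 to 8.172. On PVN array 5, Drd1 had 36.31, below the other PVN arrays at 39.38 to 39.9.

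By array, NIL array 4 held 6 of these values, NIL array 2 and PVN arrays 1 and 4 held 3 each, NIL array 5 held 2 and PVN array 5 held 1. Of the high values on NIL array 4, those of Crh, Grm3 and Cacng3 were well under the array median.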

How the results depend on the processing

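Of the 196 named genes, all kept direction and call with the values as deposited, quantile normalization, 16 or 64 added to each intensity and the replicate block, and so did the 179 and 136 still tested with filters at the 40th and 60th percentile. Including PVN array 3 ended 7 calls. Taking the mean of a gene's probe sets ended 16 and reversed 3, which became 0.38 for Cacna1d, −0.42 for Nr3c1 and −0.10 for Canx; the cause was not tested. Genes called numbered 5010 to 7377 over these settings. Probe sets called fell to 7623 with the 60th percentile filter, which tests fewer. Leaving out 1 array in turn gave 10739 to 11990 probe sets, 5983 to 6852 genes, 0.44 to 0.53 for Avp minus Oxt and −1.97 to −1.69 for Pdyn minus Avp, and ended at most 2 named calls each time. With the replicate block over numbers 1, 2, 4 and 5, 11632 probe sets and 6514 genes were called. Deviations of same-numbered arrays correlated at 0.12, 0.099, 0.090 and 0.025, and PVN array 4 correlated best with NIL array 5 (0.109), which was not enough to treat the numbers as pairs; whether the pools share rats is not known. Signals near or under the array medians limit the sizes of the largest differences.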
